A study of Rattus norvegicus with 8 samples.

Results

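Plasma of adult rats that had breathed 5% oxygen in intermittent bouts as neonates was compared with plasma of normoxic rats by what each induced in blood cells of healthy rats. The comparison rests on 4 of the 8 arrays of the study, those labelled 5% IH (intermittent hypoxia) and control, and covers all 14217 genes of the array table, each read from the probe set with the highest mean level. The reporter cells were peripheral blood mononuclear cells (PBMCs) of 2 healthy adult male Brown Norway (BN) rats, named BN1 and BN2 and about 180 days old. In wells of 500000 cells, they were cultured for 6 h with 20% plasma. Plasma came from male Sprague-Dawley (SD) rats bled as adults, at the postnatal day (PD) given in the labels as PD114. The control pool held plasma of 8 rats kept at 21% oxygen, and the 5% IH pool held plasma of 5 rats exposed to 5% oxygen in cycles over 1 h daily on postnatal days 2 to 6. The remaining plasmas serve below as values beside the comparison, a pool of 3 rats exposed to 10% oxygen (10% IH) and autologous BN plasma, which is the background of the assay. Both the control and the 5% IH cultures held plasma of another strain, so that a difference between them is one between SD plasmas. Each plasma was 1 pool, so replicate arrays vary by reporter donor (n = 2) and tell nothing of the variation among exposed animals. The limma p-values given below set a ratio against the spread between replicate arrays of all 4 plasmas. The Rank Product p measures how a probe set ranks among all probe sets. Neither measures variation among exposed animals.

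PBMCs are a mixture of T cells, B cells, natural killer (NK) cells and monocytes, with platelets carried along by the separation on a density gradient. Monocytes carry receptors for microbial products and for cytokines, and through NF-kB and AP-1 such receptors induce interleukin 1 (IL-1), tumour necrosis factor, chemokines and the prostaglandin enzyme Ptgs2 within hours. The transcripts of these early products can rise within hours of such a signal, which makes them common readouts in blood cell cultures.

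A gene met the study's criterion with a 1-sided Rank Product p under 0.05 and a ratio of group means past 1.2-fold, which is 0.263 on the log2 scale. By it, 207 of 14217 genes (1.46%) were higher with 5% IH plasma and 147 (1.03%) were lower. Over all 31042 probe sets, those without a gene symbol and the dimmer ones of a gene included, 492 were higher and 471 lower. The fold threshold alone gave the same 207 and 147 genes, so the Rank Product p removed none. In the cells of both donors, 85 genes (0.598%) were past 1.2-fold upwards and 25 (0.176%) downwards. Both 5% IH arrays lay above both control arrays for 1882 genes (13.2%) and below them for 1743 (12.3%). In each direction, 1 of the 6 arrangements of 2 arrays against 2 does so, a larger share than either. Groups lay apart in 180 of the 207 genes called higher and 123 of the 147 called lower. A choice by the ratio favours this, also in the genes named below. In limma, with p-values adjusted over the whole table by Benjamini-Hochberg, 0 genes (0.0%) had an adjusted p under 0.05, the lowest adjusted p was 0.545, and 276 genes had an unadjusted p under 0.05. With 2 arrays against 2, the smallest p of an exact 2-sided permutation test is 0.333, so no single gene could pass a test of that kind. With the estimated percentage of false predictions in place of the Rank Product p, 101 and 36 genes met the criterion. The between-array ratios behind that percentage share arrays and are not independent. The percentage may therefore be too low and these counts too high, which was not tested.

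The ratios of the donors were nearly unrelated over all genes, and the largest mean ratios had one sign in both, which a choice by the mean favours. Across the 14217 genes, the log2 ratio in BN1 and that in BN2 correlated at 0.0579 and had the same sign in 50.6%, as a description in which each donor's ratio rests on 1 array of each plasma. The ratios had an SD of 0.138 in BN1 and 0.142 in BN2. Of the 207 genes called higher, 47 were past the threshold only in BN1 and 75 only in BN2, and of the 147 called lower, 51 only in BN1 and 71 only in BN2. The 8 genes past 1.5-fold upwards and the 1 past it downwards had ratios of one sign in both donors.

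**Figure D1:**
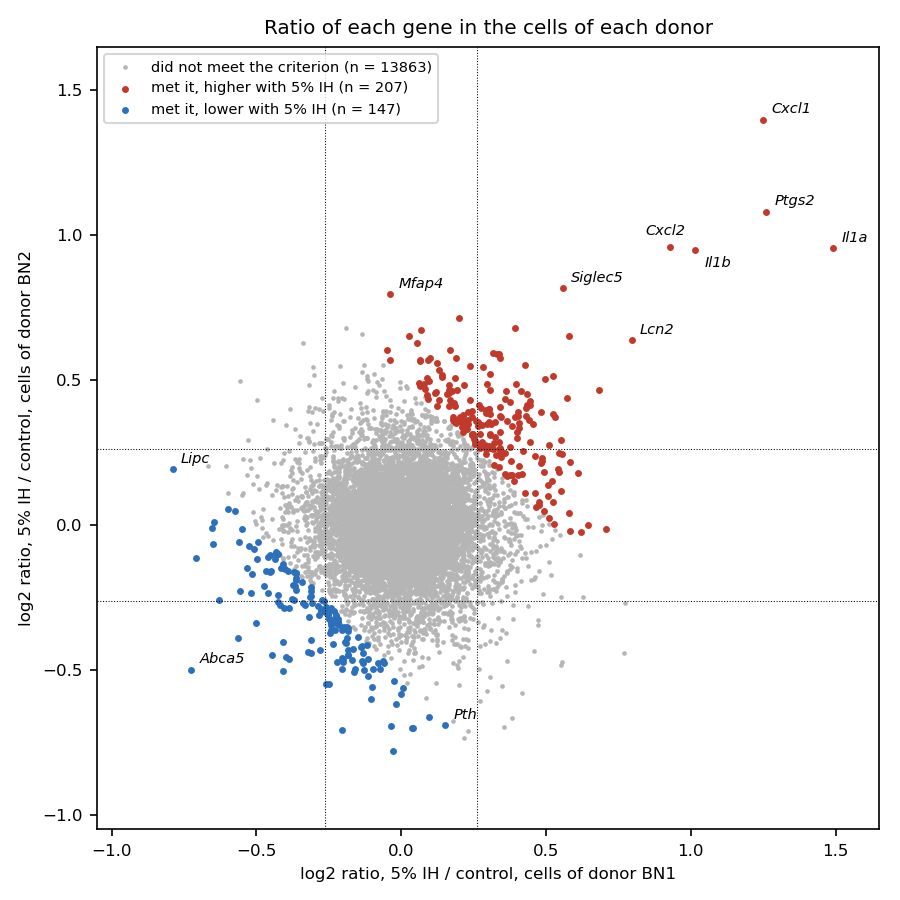
Log2 ratio of 5% IH to control in cells of donor BN1 (horizontal axis) and BN2 (vertical axis), 1 point a gene, with dotted lines at 1.2-fold. The grey genes did not meet the criterion and form a round cloud, the 207 red and 147 blue genes met the criterion, and Cxcl1, Il1a, Ptgs2, Il1b and Cxcl2 stand apart at the upper right.

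Genes called in either direction lay mostly among dim probe sets, those called lower almost wholly. The dimmest 2 of 5 classes of level held 151 of the 207 genes called higher and 143 of the 147 called lower. With the genes ranked by mean level and split into these classes of equal size, the dimmest class held 84 genes called higher and 84 called lower, and the brightest class held 6 and 0. In the brightest 3 classes together, with mean levels of 5.68 to 14.0 on the log2 scale, 56 genes were called higher and 4 lower, and 33 and 0 were past 1.2-fold in both donors. The SD of the ratio was 0.136 in the dimmest class and 0.0478 in the brightest, so that the same 1.2-fold is a smaller multiple of the spread where probe sets are dim. The array table holds no calls of detection, and whether a dim gene was expressed cannot be read from it.

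**Figure D2:**
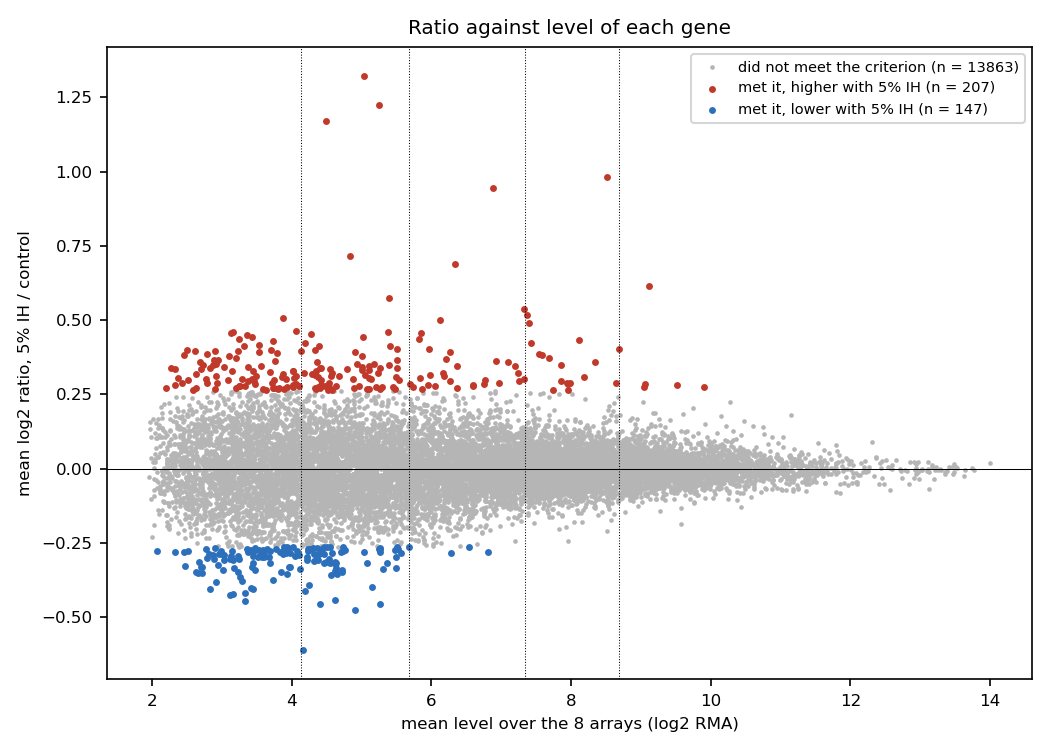
Mean log2 ratio of 5% IH to control (vertical axis) against mean level over the 8 arrays (horizontal axis, log2 RMA units), 1 point a gene, with dotted lines between the 5 classes of level. Blue genes, called lower, lie in the dimmer classes, with 4 in the brightest 3, while red genes, called higher, are also most frequent there but reach the brightest class, with 6 in it.

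The IL-1 genes were among the largest ratios of the comparison. *Il1a*, which encodes the membrane-bound and released alarm cytokine IL-1 alpha, stood at 5.02 and 5.24 with control plasma (BN1 and BN2) and at 6.51 and 6.20 with 5% IH plasma, all on the log2 scale. *Il1b*, the secreted IL-1 of monocytes, stood at 9.06 and 9.23 with control plasma and at 10.08 and 10.18 with 5% IH plasma. For both genes the groups were well apart and each donor moved upwards. The log2 ratio of *Il1a* was 1.22 (2.33-fold, standard error 0.182), and that of *Il1b* was 0.98 (1.97-fold, standard error 0.139), with a limma adjusted p of 0.545 for each. A second probe set of *Il1a* had a log2 ratio of 1.08 and met the criterion too.

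Of 29 measured inflammatory cytokines, 6 met the criterion upwards and none downwards, beside 1.46% and 1.03% of all genes, and all 6 were past 1.2-fold in both donors. The median log2 ratio of the 29 was -0.002, beside -0.001 over all genes, and 14 of the 29 ratios were positive. *Tnf*, the early cytokine of activated monocytes, stood at 6.04 and 5.98 with control plasma and at 6.52 and 6.37 with 5% IH plasma. *Il10*, which restrains macrophages, was dim at 3.98 and 3.96 with control plasma and at 4.32 and 4.55 with 5% IH plasma. In both genes the groups did not overlap, and the log2 ratios were 0.44 for *Tnf* and 0.46 for *Il10*. *Il23a*, the specific subunit of IL-23, had ratios of 0.32 in BN1 and 0.36 in BN2. *Il18*, an IL-1 family cytokine stored as a precursor, had 0.31 in each donor, and its mean ratio was 0.25 leaving out either control BN1 or 5% IH BN2, under the threshold. The brightest members that did not meet the criterion were *Ltb*, a membrane cytokine of lymphocytes (ratio 0.00), and *Csf1*, the growth factor of macrophages (-0.08). *Il6*, singled out after its values were seen as another early monocyte product, was very dim, with ratios of -0.50 and 0.43 in the donors.

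Of 20 measured receptors and signalling proteins of IL-1, 1 met the criterion upwards, beside 1.46% of all genes. This was *Il1rap*, the shared accessory subunit of IL-1 receptors. It stood at 5.45 and 5.43 with control plasma and at 5.85 and 5.73 with 5% IH plasma, a log2 ratio of 0.35 with no overlap between the groups, but of 0.19, under the threshold, with its 2 probe sets averaged. The median of the list was 0.012. Its brightest members that did not meet the criterion were *Peli1*, a ubiquitin ligase of the pathway (-0.00), and *Irak3*, a brake on Toll-like and IL-1 receptor signals (0.09).

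Of 29 measured chemokines, 6 met the criterion upwards and 2 downwards, beside 1.46% and 1.03% of all genes. The median log2 ratio was 0.049. *Cxcl1*, which draws neutrophils through Cxcr2, stood at 4.94 and 4.83 with control plasma and at 6.18 and 6.22 with 5% IH plasma. *Cxcl2*, its close relative with the same receptor, stood at 7.25 and 7.67 with control plasma and at 8.18 and 8.63 with 5% IH plasma. The donors of a group differed little in *Cxcl1*, while in *Cxcl2* BN2 was the higher donor with either plasma, and in neither gene did the groups overlap. *Cxcl1* had the largest ratio of all genes, 1.32 on the log2 scale (2.50-fold, standard error 0.172, limma adjusted p = 0.545). That of *Cxcl2* was 0.94 (1.92-fold, standard error 0.229), with 0.93 in BN1 and 0.96 in BN2. *Cxcl2* had a limma adjusted p of 1.00 without a donor term and of 0.157 with the donor as a block.

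*Ccl3*, a chemokine of monocytes and macrophages, stood at 9.01 and 9.17 with control plasma and at 9.59 and 9.82 with 5% IH plasma. *Cxcl16*, a membrane-bound scavenger of oxidized lipid and chemokine for Cxcr6, stood at 7.78 and 8.03 with control plasma and at 8.30 and 8.54 with 5% IH plasma. Both genes had separate groups and log2 ratios of 0.61 and 0.52, nearly equal in the donors. *Cx3cl1*, the tethered ligand of Cx3cr1, and *Ccl9*, a CC chemokine, lay close to the threshold at 0.27 and 0.26, the first at 0.26 leaving out control BN2 and the second at 0.19 leaving out control BN1 and 0.25 leaving out 5% IH BN2. Downwards were *Ccl2*, the main attractant of monocytes, and *Xcl1*, a chemokine of NK and T cells. *Ccl2* stood at 5.23 and 5.39 with control plasma and at 4.60 and 5.13 with 5% IH plasma, a ratio of -0.44 that was -0.18 leaving out 5% IH BN1. *Xcl1* had a ratio of -0.27, with -0.06 in BN1 and -0.47 in BN2, and had -0.08 leaving out control BN2 and -0.25 leaving out 5% IH BN2. The brightest chemokines, *Ccl5* (-0.05) and *Ccl6* (0.08), did not meet the criterion, nor did *Cxcl3*, named after its values were seen as a relative of *Cxcl1* and *Cxcl2*, with -0.18 in BN1 and -0.12 in BN2. Of 14 chemokine receptors, 1 was called higher and 1 lower, beside 1.46% and 1.03% of all genes. *Ackr3*, a scavenging receptor, was higher (0.36) and *Ccr2*, the receptor of Ccl2, was lower (-0.29, and -0.20 leaving out control BN1), both at low levels.

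The promoters of 4 of these genes are shown because they hold a motif of NF-kB, C/EBP or AP-1, factors that monocyte receptors activate. Each runs from 250 bases before to 50 bases after the start of the gene (RefSeq, build GRCr8), 5′ to 3′ on the gene's strand. Capitals mark matches to the kappaB consensus in *Cxcl1*, *Cxcl2* and *Lcn2*, to the C/EBP motif in *Cxcl1* and to the AP-1 motif in *Il1a*, searched on both strands.
Cxcl1 promoter, chr14:17479272-17479571, minus strand: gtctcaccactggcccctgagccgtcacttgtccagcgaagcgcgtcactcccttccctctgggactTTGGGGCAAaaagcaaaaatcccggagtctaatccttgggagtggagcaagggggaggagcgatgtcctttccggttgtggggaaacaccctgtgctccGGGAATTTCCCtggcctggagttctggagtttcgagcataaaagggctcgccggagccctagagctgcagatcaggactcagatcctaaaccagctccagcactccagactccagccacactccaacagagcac
Cxcl2 promoter, chr14:17467206-17467505, minus strand: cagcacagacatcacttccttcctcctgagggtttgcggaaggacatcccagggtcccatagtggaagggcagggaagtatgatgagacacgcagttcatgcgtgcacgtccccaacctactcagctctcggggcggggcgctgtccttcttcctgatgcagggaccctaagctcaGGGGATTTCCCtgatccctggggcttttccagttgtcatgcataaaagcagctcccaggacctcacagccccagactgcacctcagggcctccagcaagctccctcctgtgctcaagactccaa
Lcn2 promoter, chr3:36081731-36082030, minus strand: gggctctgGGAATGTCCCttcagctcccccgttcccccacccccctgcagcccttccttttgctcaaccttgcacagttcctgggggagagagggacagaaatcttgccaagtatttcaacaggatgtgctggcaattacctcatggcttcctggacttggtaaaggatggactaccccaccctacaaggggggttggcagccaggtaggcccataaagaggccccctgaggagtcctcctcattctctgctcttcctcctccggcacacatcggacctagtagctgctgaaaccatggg
Il1a promoter, chr3:136989968-136990267, minus strand: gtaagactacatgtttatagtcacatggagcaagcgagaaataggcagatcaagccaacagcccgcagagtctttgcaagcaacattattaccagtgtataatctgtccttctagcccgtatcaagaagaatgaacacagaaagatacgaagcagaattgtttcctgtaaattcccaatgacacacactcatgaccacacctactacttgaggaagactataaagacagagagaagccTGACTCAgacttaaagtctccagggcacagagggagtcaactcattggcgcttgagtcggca

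In *Cxcl1* the kappaB matches GGGAATTTCC, first base at -84, and GGAATTTCCC, first base at -83 and matching on the reverse strand, overlap in 1 run of capitals. In *Cxcl2* the matches GGGGATTTCC at -74 and GGGATTTCCC at -73 overlap in the same way. *Lcn2* holds GGAATGTCCC at -242 on the reverse strand, *Cxcl1* the C/EBP match TTGGGGCAA at -183 and *Il1a* the AP-1 match TGACTCA at -12. Of the 15 genes with the largest higher ratios, 12 have a promoter in the table. A kappaB match was held by 3 of the 12, against 7.51% of the 33469 promoters of the table. An AP-1 match (TGANTCA) was held by 2 (*Il1a* and *Cyfip1*) against 7.33%, a C/EBP match (TTGCNNCAA) by 1 against 2.17%, and a CRE match (TGACGTCA) by 0 against 1.83%. Of the 15 genes with the largest lower ratios past 1.2-fold in both donors, 11 have a promoter, and none of the 4 motifs matched in these windows. A match is a description of the letters alone.

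Of 24 enzymes and receptors of the prostaglandin and leukotriene pathways, 1 met the criterion upwards by its brightest probe set, beside 1.46% of all genes. *Ptgs2*, the inducible cyclooxygenase that commits arachidonic acid to prostaglandins, stood at 4.69 and 4.52 with control plasma and at 5.95 and 5.60 with 5% IH plasma. The groups lay far apart, with a log2 ratio of 1.17 (2.25-fold, standard error 0.18, limma adjusted p = 0.545). *Ptges*, the inducible synthase that makes prostaglandin E2 from its product, had probe sets that disagreed. Its brightest had a ratio of 0.13, and a dimmer one, at 3.56 and 3.72 with control plasma and 4.35 and 4.28 with 5% IH plasma, had 0.67 and met the criterion. The brightest other members were *Ptges3*, a co-chaperone (-0.01), and *Lta4h*, which makes leukotriene B4 (0.05).

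**Figure D3:**
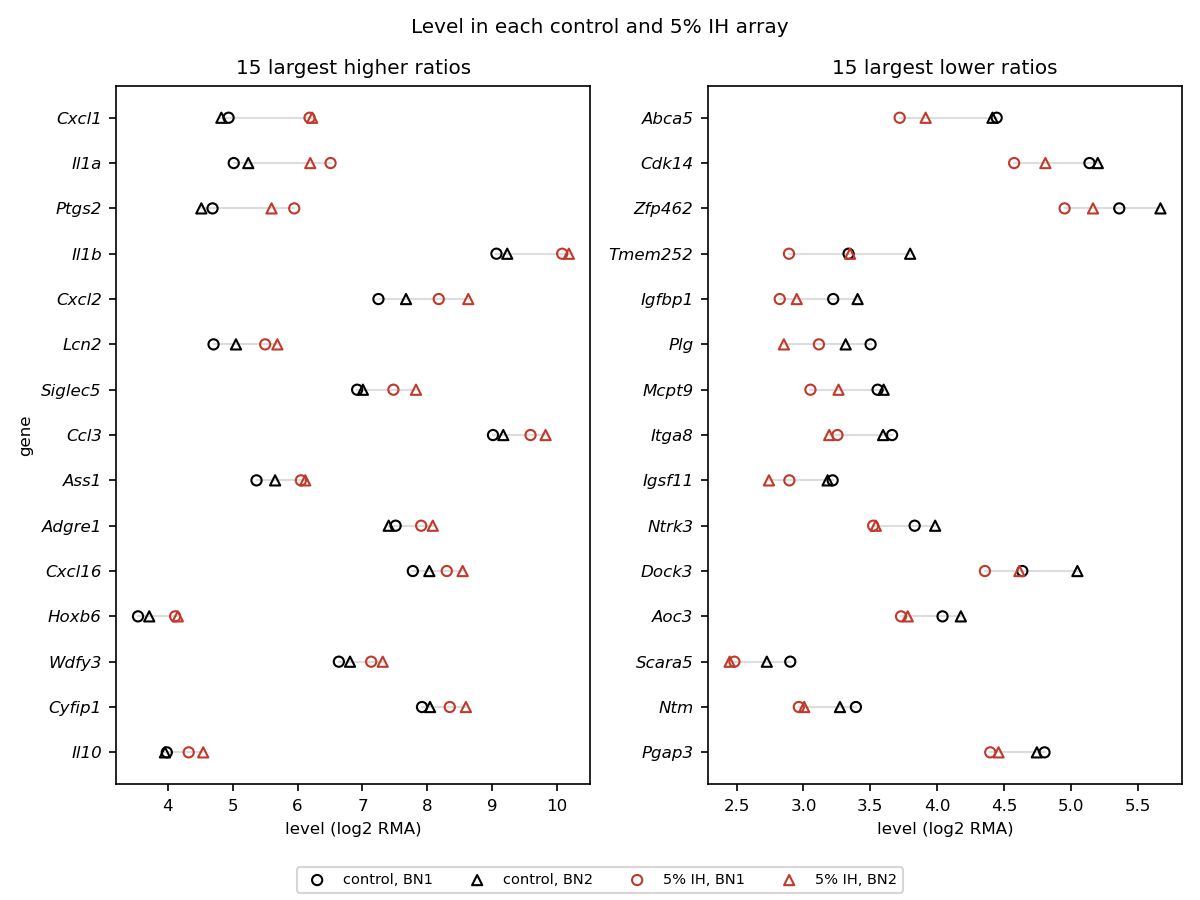
Level in each array (log2 RMA units, horizontal axis) of the 15 genes with the largest higher and the 15 with the largest lower ratio among genes past 1.2-fold in both donors, black for control and red for 5% IH plasma, circles for BN1 and triangles for BN2. The red points lie to the right of the black ones in all 15 genes on the left, and on the right only Tmem252 has an overlap, where the BN2 array of 5% IH reaches the BN1 control array.

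Receptors of myeloid cells held several members called. Of 22 measured inhibitory, Fc and scavenger receptors, 8 met the criterion upwards and none downwards, beside 1.46% and 1.03% of all genes, and 4 of them were past 1.2-fold in both donors, against 6 of the 29 cytokines. The median log2 ratio was 0.10, and with 1 array left out it was lowest at 0.05, leaving out 5% IH BN2, and highest at 0.19, leaving out 5% IH BN1. *Siglec5*, a sialic acid-binding receptor, stood at 6.92 and 7.01 with control plasma and at 7.48 and 7.82 with 5% IH plasma. *Adgre1*, an adhesion receptor of macrophages, stood at 7.51 and 7.40 with control plasma and at 7.90 and 8.08 with 5% IH plasma. Both had separate groups, with log2 ratios of 0.69 (standard error 0.156) and 0.54 (standard error 0.221). The other 6 had ratios of 0.27 to 0.36. They were *Clec4a3*, a C-type lectin, *Stab1* and *Olr1*, scavenger receptors, *Lilrb4*, an inhibitory receptor, *Fcgr1a*, the high-affinity receptor of immunoglobulin G, and *Fcgr2b*, the inhibitory one. None of these 6 met the criterion leaving out 5% IH BN2 (0.06 to 0.21), nor did any but *Stab1* leaving out control BN1 (0.12 to 0.24). The brightest member below the threshold was *Fcer1g*, the signalling chain of Fc receptors (0.14).

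Of 18 pattern recognition receptors and adaptors, 3 met the criterion upwards, beside 1.46% of all genes, with a median of 0.016. *Cd14*, the lipopolysaccharide co-receptor, stood at 9.78 and 10.03 with control plasma and at 10.21 and 10.40 with 5% IH plasma. *Tlr2*, the receptor for bacterial lipoproteins, stood at 7.89 and 8.04 and at 8.20 and 8.44. Neither gene overlapped between groups, with ratios of 0.40 and 0.35, that of *Tlr2* being 0.23 leaving out 5% IH BN2. *Tlr7*, the endosomal receptor for single-stranded RNA, owed its ratio of 0.46 mostly to BN2 (0.72, against 0.20 in BN1), and was at 0.25 leaving out 5% IH BN2. The adaptor *Sting1* (0.02) and the signalling chain *Tyrobp* (0.13) were the brightest members that did not meet the criterion.

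Monocyte markers are given here beside those genes, since in cultures of mixed cells more cells of a type and more RNA per cell cannot be told apart. Of 16 measured monocyte markers, 4 met the criterion upwards (*Adgre1*, *Cd14*, *Fcgr1a* and *Itgam*) and 1 downwards (*Ccr2*), beside 1.46% and 1.03% of all genes. Of the 16, 12 had a positive ratio, and the median was 0.088. The median was -0.017 leaving out control BN1 and -0.003 leaving out 5% IH BN2, and 0.188 and 0.164 leaving out control BN2 and 5% IH BN1, so that its sign rests on single arrays. Their summed level was 12.5 and 12.7 on the log2 scale with control plasma and 12.7 and 12.9 with 5% IH plasma, and the part of this in the results on myeloid genes was not tested. Of the brightest markers, *Cybb*, the oxidase subunit of phagocytes, had a ratio of 0.07, and *Lyz2*, the lysozyme of monocytes, had 0.13. *Fcgr1a* and *Itgam*, an integrin and complement receptor chain, had overlapping groups, with ratios of 0.06 and 0.10 leaving out 5% IH BN2 and of 0.12 and 0.16 leaving out control BN1.

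Few markers of the other blood cells met the criterion. None of 16 T cell, 10 B cell, 11 neutrophil, 14 platelet, 11 erythroid and 11 dendritic cell markers met it. Downwards, 1 of 16 NK cell markers (*Xcl1*) and 1 of 14 mast cell markers (*Mcpt9*) met it, beside 1.03% of all genes. The median of the mast cell list was -0.084, close in size to the 0.088 of monocyte markers, but 0.030 with the filter on low values. Summed T cell markers lay at 14.5 in all 4 arrays and summed B cell markers at 12.7 in all 4. Some members of the T, B and NK cell lists were bright, with *Cd3g*, *Cd79b* and *Prf1* at mean levels of 11.6, 10.6 and 10.0. So was *Pf4* of the platelet list, at 12.6. The platelet median was -0.063 with 2 of 14 ratios positive, and the summed platelet level was 13.8 with control plasma in both donors and 13.7 and 13.8 with 5% IH plasma.

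Among 24 measured genes of the NF-kB pathway, 4 met the criterion upwards and none downwards, beside 1.46% and 1.03% of all genes. The median was 0.038. *Bcl2a1*, a survival protein of myeloid cells, stood at 8.39 and 8.57 with control plasma and at 8.83 and 9.0 with 5% IH plasma, a ratio of 0.43. *Nfkbiz*, a nuclear IkappaB protein, had 0.29 and 0.28 in the donors, and both genes had separate groups. With its 2 probe sets averaged, *Nfkbiz* had 0.15 and did not meet the criterion. *Icam1*, an adhesion molecule (0.29), and *Sod2*, the mitochondrial superoxide dismutase (0.28), met it too, with 0.19 and 0.23 leaving out control BN1 and 0.21 and 0.20 leaving out 5% IH BN2. The inhibitor *Nfkbia* had 0.14 and the subunit *Nfkb1* 0.04, the brightest of the members that did not meet the criterion.

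Of 18 C/EBP and other myeloid transcription factors, 3 met the criterion upwards and none downwards, beside 1.46% and 1.03% of all genes. All 3 were past 1.2-fold in both donors, and the median of the list was 0.057. *Cebpd*, a factor of the acute phase response, stood at 5.50 and 5.53 with control plasma and at 5.94 and 5.89 with 5% IH plasma. *Nr1h3*, the oxysterol receptor LXR alpha, stood at 5.04 and 5.03 and at 5.30 and 5.44. The donors were nearly equal within each plasma in *Cebpd* and the groups did not overlap in either gene, with ratios of 0.40 and 0.34. With averaged probe sets *Cebpd* had 0.20, under the threshold. *Cebpb*, a factor of macrophage activation, had 0.31 and 0.27 in the donors, and 0.16 leaving out control BN1 and 0.18 leaving out 5% IH BN2. None of 23 immediate-early factors met the criterion, with a median of 0.060 and *Klf2* (-0.02) and *Jund* (-0.01) the brightest. None of 28 SOCS, PIM and STAT genes (median 0.033) or of 11 MAP kinase phosphatases (0.049) met it.

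Lipid genes went both ways. In the LXR and cholesterol efflux list, 2 of 24 genes met the criterion upwards and 2 downwards, beside 1.46% and 1.03% of all genes. The median was -0.043. *Abca1*, which passes cholesterol to apolipoproteins, stood at 8.03 and 8.30 with control plasma and at 8.43 and 8.67 with 5% IH plasma, and *Nr1h3* is given above. The groups of *Abca1* did not overlap, and its ratio of 0.38 was 0.25 leaving out control BN1 and 0.26 leaving out 5% IH BN2. *Abca5*, a lipid transporter of the lysosome, stood at 4.44 and 4.41 with control plasma and at 3.72 and 3.91 with 5% IH plasma. It had the largest lower ratio of all genes, -0.61 (standard error 0.0935, limma adjusted p = 0.545), again with no overlap. *Pparg*, a nuclear receptor of lipid storage, was dim, with a ratio of -0.28 that was -0.08 leaving out control BN1 and -0.24 leaving out 5% IH BN2.

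Several lists without a call had small and mostly positive ratios, among them SOCS, PIM and STAT genes (21 of 28 positive) and antigen presentation genes (20 of 27), and the 2 with the highest medians are given here. None of 22 genes of cholesterol synthesis and uptake met the criterion, but 19 had a positive ratio, 11 had both 5% IH arrays above both control arrays, beside 13.2% of all genes, and the median was 0.086 (0.087 in BN1 and 0.077 in BN2), and it was lowest at 0.033 leaving out 5% IH BN1 and highest at 0.110 leaving out control BN1. *Fdps*, the farnesyl diphosphate synthase and one of the brightest, had 0.18 and 0.19 in the donors, and *Insig1*, a sensor of sterols, had 0.05 and 0.04. Singled out after their values were seen, *Sqle*, *Cyp51* and *Msmo1*, later enzymes of the pathway, had mean ratios of 0.25, 0.22 and 0.21. None of 26 endoplasmic reticulum stress genes met it either, while 23 had a positive ratio, 11 lay above without overlap and the median was 0.071, with 0.025 leaving out 5% IH BN2 and 0.038 leaving out control BN1. Among them *Hspa5*, the chaperone BiP, had 0.17 and 0.19 in the donors, and *Atf4*, a factor of the integrated stress response, had 0.06 and 0.04. A positive count is a description, since genes of a pathway share their regulation and these 2 lists were singled out by their values.

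Enzymes and stress genes gave few members that met the criterion, all upwards, with 1.46% of all genes called higher beside them. *Lcn2*, an iron-sequestering protein of the acute phase, stood at 4.71 and 5.05 with control plasma and at 5.50 and 5.69 with 5% IH plasma. *Ass1*, the argininosuccinate synthase that remakes arginine, stood at 5.37 and 5.65 and at 6.05 and 6.12. Neither overlapped between groups, and the ratios were 0.72 (standard error 0.125) and 0.57. *Lcn2* was the only one of 19 glucocorticoid-induced genes to meet the criterion, beside *Tsc22d3*, a standard glucocorticoid target, at 0.08, and *Ass1* the only one of 22 genes of arginine and polyamines. Among 20 iron genes, *Lcn2* and *Hmox1*, the heme oxygenase, met it, and *Hmox1* was also the only one of 24 NRF2 and antioxidant genes. *Hmox1* had a ratio of 0.27, overlapping groups, and 0.16 and 0.08 leaving out control BN1 and 5% IH BN2.

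*Cdkn1a*, an inhibitor of the cell cycle and target of p53, was the only one of 21 p53 targets to meet the criterion. It was called higher, as were 1.46% of all genes. Its brightest probe set had ratios of 0.10 in BN1 and 0.50 in BN2, with 0.11 leaving out 5% IH BN2, and another had 0.79 and 0.53. In the complement list, 2 of 25 met it upwards, beside 1.46% of all genes. They were *C3*, the central component, at 7.75 and 7.93 with control plasma and 8.05 and 8.32 with 5% IH plasma, and *Itgam*. *C3* had a ratio of 0.34, and 0.25 leaving out control BN1 and 0.21 leaving out 5% IH BN2. Of 25 interferon-stimulated genes, 3 met it upwards, beside 1.46% of all genes, and none was past 1.2-fold in both donors. They were *Mx2* and *Oasl*, antiviral effectors, at 0.32 and 0.30, and *Ifit2* at 0.28. *Mx2* was below the threshold leaving out control BN2 (0.24) or 5% IH BN2 (0.25) and with averaged probe sets (0.16), and *Ifit2* had ratios of opposite sign in the donors, with 0.17 and 0.07 leaving out the same arrays.

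Several lists had few members called, with 1.46% of all genes called higher and 1.03% lower beside them. Of 32 genes of matrix, plasminogen and coagulation, *Mmp14*, a membrane collagenase, was higher at 0.32 (0.26 leaving out control BN1, 0.23 leaving out 5% IH BN2 and 0.21 with averaged probe sets), and *Serpine2*, an inhibitor of proteases, and *Plg*, plasminogen, were lower at -0.27 and -0.42. Of 28 hypoxia-inducible and glycolysis genes, *P4ha1*, a collagen prolyl hydroxylase, was lower at -0.27, and the median was 0.020. *Serpine2* and *P4ha1* did not meet the criterion leaving out control BN2 (-0.11 and -0.18) or 5% IH BN1 (-0.19 and -0.26). Of 27 proliferation genes, *Top2a* and *Cenpf*, both of dividing cells, met it upwards with overlapping groups, and leaving out control BN2 their ratios were -0.06 and -0.07, and leaving out 5% IH BN1 they were 0.15 and 0.18. *Top2a* had 0.22 with averaged probe sets. Of 32 lysosomal genes, *Psap*, the precursor of saposins, met it with overlapping groups at 0.29, and was at -0.12 leaving out 5% IH BN2 and at 0.05 leaving out control BN1. None of 27 antigen presentation, 27 growth factor, 45 ion channel, 31 ribosomal protein and 53 respiratory chain genes met it, with medians of 0.030, -0.017, -0.011, -0.005 and 0.004.

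**Figure D4:**
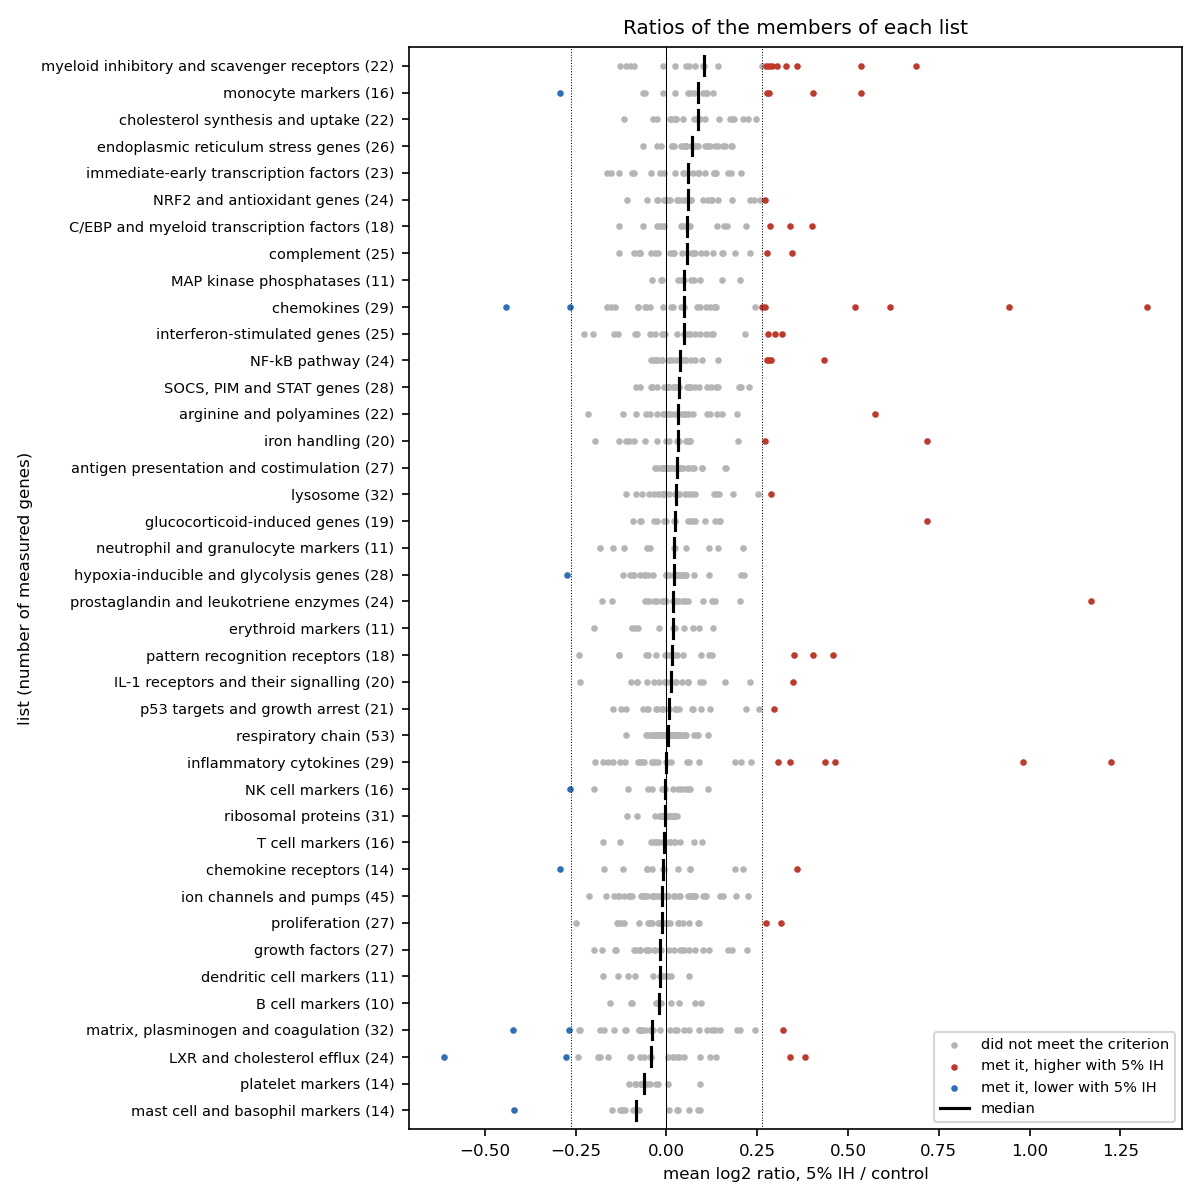
Mean log2 ratio of 5% IH to control of each measured gene (horizontal axis) in each of the 40 lists (vertical axis, number of genes in parentheses), with a black bar at the median and dotted lines at 1.2-fold. Medians lie close to 0, that of myeloid receptors being 0.10, and the largest ratios belong to members of lists whose medians lie near 0.

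Of the 15 genes with the largest higher ratios, 3 have not been described. *Cyfip1*, a regulator of actin assembly, stood at 7.92 and 8.04 with control plasma and at 8.34 and 8.59 with 5% IH plasma. *Wdfy3*, an adaptor of selective autophagy, stood at 6.64 and 6.81 and at 7.13 and 7.31, while its second, dim probe set had a ratio of -0.10 and did not meet the criterion. *Hoxb6*, a homeobox factor, was dim, at 3.54 and 3.71 and at 4.11 and 4.15. The groups were separate in all 3, with ratios of 0.49, 0.50 and 0.51. With its probe sets averaged, *Wdfy3* had 0.20 and did not meet the criterion. By the brightest probe set, the lowest ratio among the 15 with 1 of the 4 arrays left out was 0.35, in *Il10* leaving out 5% IH BN2. The choice of the 15 by these same arrays favours this. Of the 85 genes past 1.2-fold upwards in both donors, 30 are members of at least 1 list, beside 872 of all 14217 genes, with lists that were written with results of these data known.

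The 15 genes with the largest lower ratios among those past 1.2-fold in both donors, a limit that leaves out *Ccl2*, had, apart from *Abca5*, ratios of -0.48 to -0.35 and mean levels of 2.62 to 5.27. *Cdk14*, a cyclin-dependent kinase, stood at 5.14 and 5.20 with control plasma and at 4.57 and 4.81 with 5% IH plasma. *Zfp462*, a zinc finger protein, stood at 5.36 and 5.67 and at 4.95 and 5.16. The groups did not overlap in either, but the 3 other probe sets of *Cdk14* had ratios of -0.07, -0.03 and -0.05 and the other one of *Zfp462* had -0.04. *Igfbp1* and *Plg*, known as products of the liver, stood at 3.22 and 3.40 and at 3.50 and 3.32 with control plasma, near the lower end of the scale, and had ratios of -0.43 and -0.42. *Mcpt9*, a protease of mast cells (-0.42), *Itga8*, an integrin chain (-0.41), *Igsf11*, an adhesion molecule (-0.38), and *Ntrk3*, the receptor of neurotrophin 3 (-0.38), were as dim. *Dock3*, *Aoc3*, *Scara5*, *Ntm*, *Pgap3* and *Tmem252* made up the rest, with -0.36, -0.35, -0.35, -0.35, -0.35 and -0.45. The other probe set of *Aoc3* had 0.19, that of *Ntm* 0.11 and that of *Itga8* -0.07, and with averaged probe sets *Cdk14*, *Zfp462*, *Itga8*, *Aoc3* and *Ntm* did not meet the criterion (-0.16, -0.25, -0.24, -0.08 and -0.12). *Tmem252* and *Dock3* did not meet the criterion leaving out control BN2 (-0.22 and -0.15) or 5% IH BN1 (-0.22 and -0.23), nor did *Scara5* leaving out control BN1 (-0.26).

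The direction of other probe sets gave little check on the called genes. The 207 genes called higher include 51 with further probe sets, 75 in all, of which 42 had a ratio in the same direction and 10 met the criterion. The 147 called lower include 33 with 44 further probe sets, of which 26 had the same direction and 2 met it. Over all genes, 51.7% of 6609 further probe sets had the direction of the brightest, which is not far from the shares in the called genes. No share over all further probe sets is given here for those that met the criterion. Over all 31042 probe sets, the brightest of each gene included, 492 met it upwards and 471 downwards. Further probe sets are dimmer by the choice of the brightest, and may lie in other parts of the transcript.

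Values with the remaining plasmas give the background and the neighbouring exposure. The 10% IH comparison shares its control arrays with the 5% IH one, so its values stand beside them with no test. With autologous plasma, *Il1b* stood at 5.21 and 5.47, with control at 9.06 and 9.23, with 10% IH at 9.63 and 9.28 and with 5% IH at 10.08 and 10.18. *Cxcl1* stood at 3.14 and 3.74 with autologous plasma and at 5.54 and 5.72 with 10% IH plasma. In both genes the step from autologous to control plasma was larger than that from control to 5% IH plasma, by 3.81 against 0.98 in *Il1b* and by 1.44 against 1.32 in *Cxcl1*, on the log2 scale. Among the 15 genes with the largest higher ratios, it was smaller in *Il1a* (0.78 against 1.22), *Il10* (0.26 against 0.46) and *Hoxb6* (-0.17 against 0.51), and larger in the rest.

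*Il1a* stood at 4.61 and 4.08 with autologous plasma and at 5.29 and 5.09 with 10% IH plasma, and *Ptgs2* at 3.21 and 2.69 and at 4.70 and 4.53. By the brightest probe set, both thus lay among or close to the control arrays with 10% IH plasma, at log2 ratios to control of 0.06 and 0.01. The study, however, lists *Il1a* as higher with 10% IH plasma too. The value of its second probe set with that plasma is not given here. *Siglec5* and *Adgre1* had ratios of -0.17 and -0.01 with 10% IH plasma, and *Lcn2* and *Ass1* had 0.44 and 0.51. *Cxcl2*, *Ccl3* and *Hoxb6* had 0.54, 0.34 and 0.31. Of the 207 genes called higher, 40 met the criterion upwards with 10% IH plasma too, and of the 147 called lower, 31 met it downwards. Of the 15 largest ratios in each direction, 7 did so in either. The shared control arrays favour this. *Abca5* stood at 4.24 and 4.22 with autologous plasma and at 4.17 in both donors with 10% IH plasma, below control and above 5% IH. Over the 15 genes with the largest higher ratios, both 5% IH arrays lay above both autologous arrays in 15, and both control arrays lay above both autologous arrays in 14, the exception being *Hoxb6*. Of the 15 with the largest lower ratios, both control arrays lay above both autologous arrays in 9. Log2 ratios of control to autologous plasma were 0.33 in *Igsf11*, 0.29 in *Ntrk3*, 0.28 in *Plg* and 0.27 in *Dock3*. Those of 5% IH to autologous plasma were -0.05, -0.09, -0.14 and -0.09. In *Ntm* and *Aoc3* control plasma gave 0.03 in each, and 5% IH plasma gave -0.32 and -0.33. The titles of the autologous arrays name BN1 for the first and BN2 for the second, but other labels of each also name the other donor, so their pairing of cells with plasma could not be settled.

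**Figure D5:**
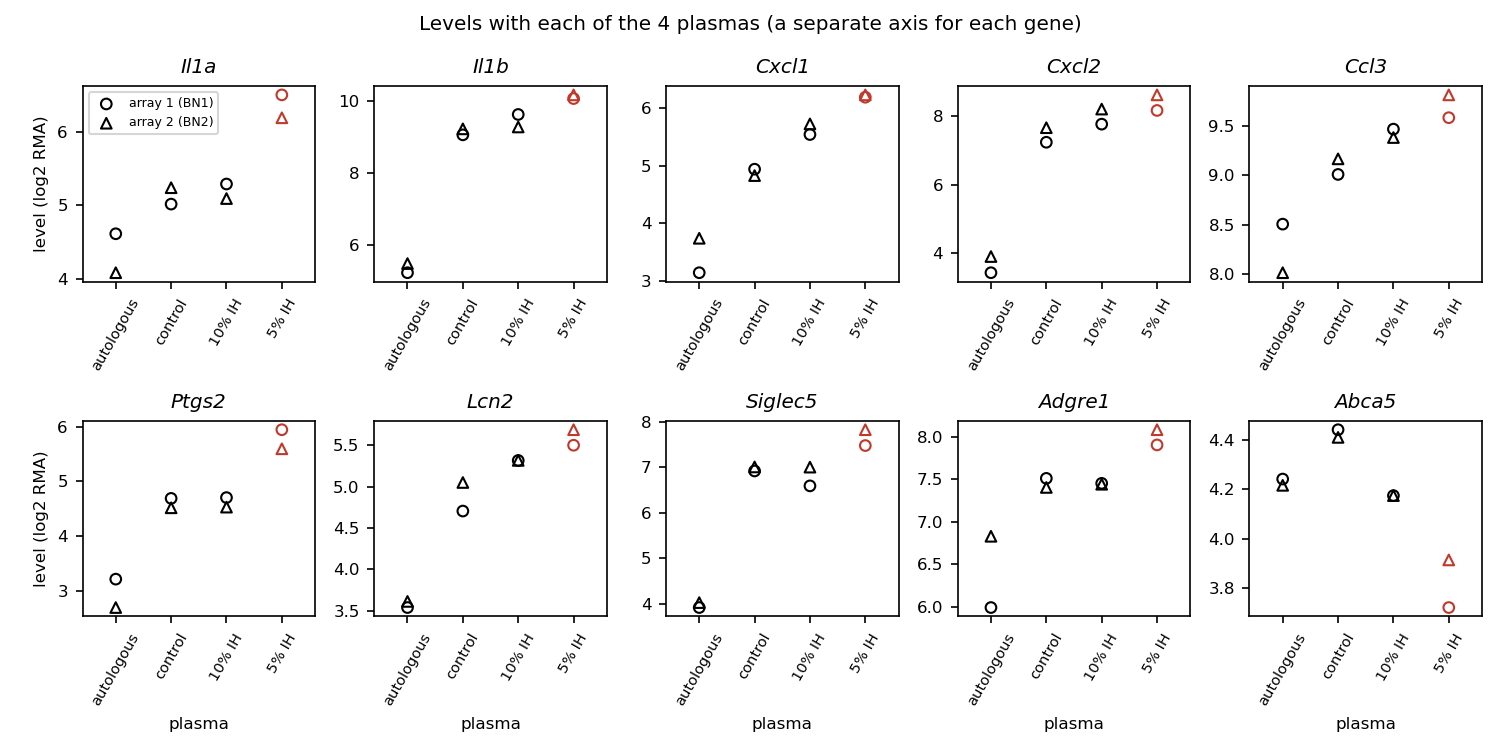
Level (log2 RMA units, vertical axis, a separate scale for each gene) of 10 genes with autologous, control, 10% IH and 5% IH plasma, circles for the first and triangles for the second array of a plasma, which are BN1 and BN2 except that the donor of the autologous arrays is uncertain. In 8 genes both 5% IH arrays, in red, lie above all other arrays, in Abca5 they lie below them, and in Cxcl2 the 5% IH array of BN1 (8.18) lies just under the 10% IH array of BN2 (8.21).

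Some calls turn on 1 donor or on the position of the threshold. The genes called with the largest gap between donors were *Lipc*, hepatic lipase (-0.79 in BN1 and 0.19 in BN2), *Pth*, parathyroid hormone (0.15 and -0.69), and *Mfap4*, a microfibril protein (-0.04 and 0.80), all at mean levels of 2.78 to 3.57. Leaving out either array of 1 donor ended each call, with -0.11 and 0.00 for *Lipc* (control BN1 and 5% IH BN1), -0.04 and -0.08 for *Pth* (control BN2 and 5% IH BN2) and 0.18 and 0.16 for *Mfap4* (the same arrays). Just inside the threshold upwards lay *Ccl9*, *Lmbr1l* and *Ndufaf1*, and just outside it *Cd300a*, *Mtrf1* and *Cpxm1*, all at 0.26 on the log2 scale. Just inside downwards lay *Celsr3*, *Sh3yl1* and *Cpz*, and just outside *Dlx5*, *Nmnat3* and *Hmga2*, all at -0.26 on the log2 scale. Each of the 6 inside lost the call leaving out either of 2 arrays, and *Lmbr1l* had -0.12 leaving out 5% IH BN2. *Sh3yl1* had ratios of opposite sign in the donors, -0.57 and 0.05. *Pdgfa*, a growth factor that the study lists for 5% IH plasma, had a ratio of 0.22 (0.12 in BN1 and 0.32 in BN2) by its 1 probe set and did not meet the criterion. The study describes the fold changes of its list as relative to autologous plasma, to which *Pdgfa* had a log2 ratio of 1.69. Its value for *Cxcl1*, however, is the 2.50-fold found here against control plasma.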

How the data were processed

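Transcript levels were read on 8 Affymetrix Rat Genome arrays, 1 per culture, 4 of which enter the comparison. The authors quantified the images with Expression Console and put all arrays through Robust Multichip Analysis (RMA) at once, and the deposited values are on the log2 scale. RMA sets all arrays to 1 distribution, so a shift common to most genes would not be seen. Per the labels, Partek was used too, with no role stated. Values of the 31042 probe sets run from 1.66 to 14.3, none missing, and array medians from 5.53 to 5.56, so they were used as they stand. Probe sets numbering 20826 carry 1 symbol in the platform annotation, 436 several and 9780 none.

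The Rank Product was computed from its definition, for want of the study's package, over 4 between-array ratios with 100 permutations. These ratios share arrays, so they are not independent. limma 3.58.1 (R 4.3.3) was fitted to 4 groups over 8 arrays without a donor term, and standard errors are limma's. Replicate numbers name the donor whose cells were used, so they pair control with 5% IH arrays. Deviations from the group means correlated at 0.240. The precision is limited by 2 arrays a group.

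The comparison, the 31 gene lists and the 9 marker lists (1036 genes, 872 measured, 19 matched by an older symbol) were chosen with earlier results of these data known. Named were the 15 largest ratios in each direction among genes that met the criterion and were past 1.2-fold in both donors, members of each list that met it and up to 2 of the brightest that did not, the 3 with the widest donor gap, those nearest the threshold, and genes of the study's list. Promoters are RefSeq's (GRCr8). Steps were checked on simulated data. The alternatives tried were donor-wise ratios, a 2-sided p, other calls, a 1.5-fold threshold, a filter under the 40th percentile of level, quantile normalization or median centring again, averaged probe sets, a donor block, other limma settings and each array left out.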

Additional observations from a re-analysis of the deposited data

Results flagged for a closer look

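In 5 named genes that met the criterion, the donors moved in opposite directions, and the difference was not tested, since each donor has 1 array a plasma. The log2 ratio in BN1 minus that in BN2 was -0.6522 for *Ifit2*, an antiviral effector (-0.05 and 0.60), and -0.9813 for *Lipc* (-0.79 and 0.19). It was -0.8351 for *Mfap4* (-0.04 and 0.80), 0.8433 for *Pth* (0.15 and -0.69), and -0.6207 for *Sh3yl1* (-0.57 and 0.05), one of the genes nearest the threshold. Among all 354 genes called, 17 had ratios of opposite sign.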

How the results depend on the processing

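By the criterion, 207 genes were higher and 147 lower. The counts were 101 and 36 with the estimated percentage of false predictions, which may be too low since its ratios share arrays. They were 129 and 78 with limma's unadjusted p, and 142 and 83 with the same p and the replicate block. At 1.5-fold they were 8 and 1, and with the filter on low values 91 and 21. Leaving out 1 array gave 317 to 528 higher, with 118 to 169 of the 207 among them, and 263 to 490 lower, with 75 to 116 of the 147. The counts past the threshold in both donors, 85 and 25, were 6 and 0 at 1.5-fold and 50 and 3 with the filter. Scaling again and averaged probe sets kept each count within 1.5 times. Ratios within donor and a 2-sided p change only the Rank Product p and again gave 207 and 147. The fold threshold alone gives these counts, so these 2 settings are little check. limma gave 0 genes with an adjusted p under 0.05 in every setting run, the replicate block included, with lowest adjusted p-values of 0.111 to 1. Of 79 named genes that met the criterion, 37 met it with each of the 4 arrays left out, and 13 did not meet it with averaged probe sets: *Wdfy3*, *Cdk14*, *Zfp462*, *Itga8*, *Aoc3*, *Ntm*, *Il1rap*, *Nfkbiz*, *Mx2*, *Cebpd*, *Mmp14*, *Top2a* and *Lmbr1l*. Signs turned in 5 with an array left out: *Top2a* ran from -0.059 to 0.6045 and *Cenpf* from -0.0682 to 0.7005 as control BN2 or BN1 was left out, and *Psap* from -0.1153 to 0.6916, *Lmbr1l* from -0.1183 to 0.6467 and *Lipc* from -0.599 to 0.0022 as 5% IH BN2 or BN1 was. The cause was not tested. An array left out unbalances the donors, whose levels differ. Dim probe sets limit the calls, since 21 of the lower genes were left with the filter on low values.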
